A study of Mus musculus with 6 samples.

Results

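Irs1, Pik3r3 and Pik3cb encode the receptor adaptor IRS1, a regulatory subunit and a catalytic subunit of phosphoinositide 3-kinase (PI3K). The 3 genes were taken from 8973 genes that had at least 1 probe row with a single gene symbol, and they held 4 of the 21446 rows of the array, 2 for Irs1 and 1 each for Pik3r3 and Pik3cb. They were chosen by their ratios of growth hormone (GH) over saline on these same arrays, so their values below are a description. The fit over all features used below included them, but no test result is given for them. All 4 rows had a value on all 6 arrays, so none was lost to a filter on missing values. The RNA was from bone of C57BL/6J-Ghrhr<lit> (lit/lit) mice, which carry a disrupted gene for the receptor of growth hormone-releasing hormone and are deficient in GH. All animals, controls included, were lit/lit and 4 weeks old. GH was given once under the skin at a dose of 4 mg per kg of body weight, controls had phosphate-buffered saline (PBS) by the same route, and bone was taken 6 or 24 hours later. Each sample pooled RNA of 2 animals, and each of 6 two-colour arrays set a GH pool in Cy5 against a PBS pool in Cy3, with replicates 1 to 3 at 6 hours and replicates 4 to 6 at 24 hours.

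GH acts through a receptor that activates the kinase JAK2, and part of its effect on growth runs through IGF-1 made in response. Both routes can lead to tyrosine phosphorylation of IRS1. Phosphorylated IRS1 binds the SH2 domains of a PI3K regulatory subunit, and the catalytic subunit held by it makes the membrane lipid PIP3, which recruits the kinases PDK1 and AKT. In bone, osteoblasts are known to use this route for survival and matrix formation, and mice without Irs1 are known for small size and low bone turnover.

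The sequences in front of the 3 genes are shown because Pik3r3 and Pik3cb had similar ratios on the arrays, so that their promoters can be compared. Each is the run of 250 bases that ends at an annotated transcript start, 5′ to 3′ on the gene's strand, from RefSeq in GRCm38.p6, with every CpG dinucleotide in capitals. The windows are chr1:82291440-82291689 on the minus strand for Irs1, chr4:116221166-116221415 on the plus strand for Pik3r3 and chr9:99140212-99140461 on the minus strand for Pik3cb. The reference holds 3 starts for Pik3r3, of which the first listed is printed.

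Irs1: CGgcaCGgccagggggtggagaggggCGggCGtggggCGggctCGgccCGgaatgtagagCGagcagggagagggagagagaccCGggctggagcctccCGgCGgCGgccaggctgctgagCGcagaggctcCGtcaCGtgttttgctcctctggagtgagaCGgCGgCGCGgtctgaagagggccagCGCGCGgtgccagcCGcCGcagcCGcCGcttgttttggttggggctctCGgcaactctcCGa

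Pik3r3: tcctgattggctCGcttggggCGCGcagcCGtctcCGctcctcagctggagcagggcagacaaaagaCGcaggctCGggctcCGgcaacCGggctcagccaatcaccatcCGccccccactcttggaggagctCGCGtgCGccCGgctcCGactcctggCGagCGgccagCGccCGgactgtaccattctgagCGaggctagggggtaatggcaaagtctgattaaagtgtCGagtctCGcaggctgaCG

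Pik3cb: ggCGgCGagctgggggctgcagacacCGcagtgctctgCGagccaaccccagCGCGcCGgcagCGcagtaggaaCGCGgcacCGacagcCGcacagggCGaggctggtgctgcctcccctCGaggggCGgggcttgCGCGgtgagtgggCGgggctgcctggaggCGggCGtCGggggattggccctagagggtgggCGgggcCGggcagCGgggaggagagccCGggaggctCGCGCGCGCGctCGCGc

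All 3 printed windows were rich in G and C. The share of G and C was 72.4% for Irs1, 65.6% for Pik3r3 and 78.0% for Pik3cb, against a median of 52.4% over 32851 windows of the same length. They held 28, 23 and 32 CpG dinucleotides, against a median of 6. The other 2 windows of Pik3r3 held 12 and 6, with a share of G and C of 58.8% and 48.8%. The letters TTCNNNGAA, the core of the element bound by the GH-activated factor STAT5, and GTAAACA, the core of the element bound by FOXO factors, were searched on both strands. Neither was present in any of the 5 windows of the 3 genes, while 7.02% and 3.17% of all windows held them. This says only that these letters are not in these windows.

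The arrays held between 18302 and 19961 values each, and their number limits the precision of what follows. Values are log2 ratios of GH over PBS. That direction is likely from the dyes in the labels and is not stated in the value table. GH was in Cy5 on every array, so a dye effect of a probe and an effect of GH cannot be told apart. The scale of the arrays differed, from an SD over all rows of 0.466 on replicate 1 to 0.913 on replicate 6. Only ratios were deposited, so neither the level of a gene nor the bone identity of the RNA could be checked, and fewer cells of a type and less RNA per cell cannot be told apart. Different rows of a gene often disagreed. Of 1430 genes with exactly 2 complete rows, 49.4% had means of opposite sign at 24 hours.

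Irs1 is the adaptor that links the receptors to PI3K. Row 1 of Irs1 had log2 ratios of -0.69, 0.12 and -0.64 at 6 hours and of -1.64, -0.89 and -0.34 at 24 hours. It lay below 0 on 5 of 6 arrays, with the lowest value on replicate 4, and the 2 times overlapped. Its means were -0.40 ± 0.46 (SD, n = 3 arrays) at 6 hours and -0.96 ± 0.65 at 24 hours, that is 1.32-fold and 1.94-fold lower with GH. Row 2 of Irs1 had 0.01, 0.04 and 0.12 at 6 hours and -0.07, -0.17 and -0.45 at 24 hours. It was close to 0 on every 6-hour array and below 0 on every 24-hour array, without overlap. Its means were 0.06 ± 0.06 at 6 hours and -0.23 ± 0.20 at 24 hours. Over all features with 6 values, 3.70% were likewise lower on every 24-hour array than on every 6-hour array.

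The 2 Irs1 rows therefore gave different sizes. At 24 hours their means were 0.726 apart on the log2 scale, and 38.4% of the 1430 genes with 2 complete rows had a wider gap (median 0.524). The order of the arrays differed as well. Row 1 was lowest on replicate 4 and row 2 on replicate 6. The mean of both rows was -0.17 ± 0.22 at 6 hours and -0.59 ± 0.24 at 24 hours. At 6 hours it was -0.09 without replicate 1 and -0.30 without replicate 2. Which row measures the Irs1 transcript was not tested.

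Pik3r3 encodes the gamma regulatory subunit, a short relative of the other regulatory subunits that carries their SH2 domains. Its row had log2 ratios of -0.36, -1.74 and -1.15 at 6 hours and of -1.84, -1.74 and -4.06 at 24 hours. It was below 0 on all 6 arrays, and replicates 2 and 5, of different times, had the same value. The means were -1.08 ± 0.69 (SD, n = 3) at 6 hours and -2.54 ± 1.31 at 24 hours, or 2.12-fold and 5.83-fold lower with GH. Replicate 6 set much of the later mean. Its linear ratio was 0.06, and because the deposited ratios carry 2 decimals, the log2 value there could lie anywhere from -4.18 to -3.94.

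Pik3cb encodes the beta catalytic subunit, which receives signals from G-protein-coupled receptors as well as from tyrosine-phosphorylated adaptors. Its row had -0.06, -1.09 and -1.60 at 6 hours and -2.18, -1.56 and -3.84 at 24 hours. It was also below 0 on all 6 arrays, near 0 on replicate 1 and lowest on replicate 6. Only replicate 3 at 6 hours lay below a 24-hour array, replicate 5, and the other values did not overlap. The means were -0.92 ± 0.78 at 6 hours and -2.53 ± 1.18 at 24 hours, or 1.89-fold and 5.76-fold lower. The 6-hour mean was -0.57 without replicate 3. On replicate 6 the linear ratio was 0.07, which allows log2 values from -3.94 to -3.74.

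**Figure D1:**
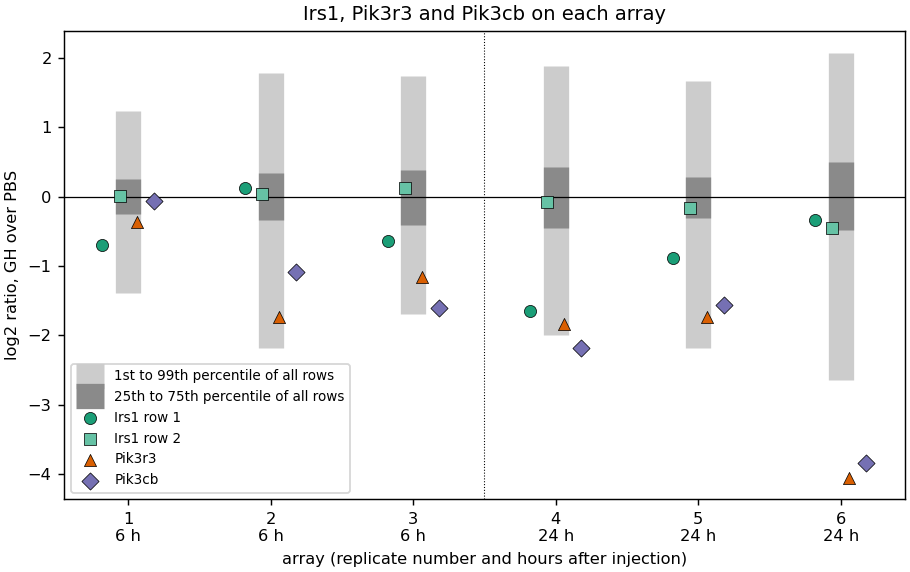
Log2 ratio of GH over PBS (vertical axis) of the 4 rows on each of the 6 arrays (horizontal axis, replicate number and hours after injection). Points are single arrays; light bars span the 1st to the 99th percentile of all rows of that array and dark bars the 25th to the 75th. Pik3r3 and Pik3cb lie beneath the light bar on replicate 6 (-4.06 and -3.84), and Pik3cb also on replicate 4 (-2.18), while both Irs1 rows lie within it on all 6 arrays.

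Set among all rows of the same array, which takes the unequal scale out, Pik3r3 ranked low throughout. The share of rows with a lower ratio was 15.6%, 2.15% and 4.90% on the 6-hour arrays and 1.38%, 1.82% and 0.0568% on the 24-hour arrays. For Pik3cb it was 43.8%, 6.59% and 1.28% at 6 hours and 0.538%, 2.34% and 0.119% at 24 hours. For row 1 of Irs1 it ran from 2.19% on replicate 4 to 60.1% on replicate 2. For row 2 of Irs1 it ran from 25.5% on replicate 6 to 57.8% on replicate 3, inside the middle of the distribution. Of 16678 features measured on 2 or more arrays per time, Pik3r3 and Pik3cb had the 20th and 23rd lowest means at 24 hours, and Irs1, as the mean of its rows, the 2594th. Those means are of ratios as deposited, so the unequal scale of the arrays still enters these ranks. Should the ratio run the other way, these ranks would count from the highest, and the shares above would be of rows with a higher ratio.

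The ratios of Pik3r3 and Pik3cb followed a similar course over the arrays and lay furthest apart on replicate 2 (-1.74 against -1.09). Their root mean square difference over the 6 arrays was 0.390 on the log2 scale. Among 8140 named genes with 6 values, Pik3r3 was the second nearest to Pik3cb by this measure, and Pik3cb the third nearest to Pik3r3. The other 4 of the 5 nearest genes were the same for both. They were Atg2b, an autophagy gene (0.349 from Pik3r3), Tmem17, a gene of the ciliary membrane (0.357), Cavin2, a caveolar coat gene (0.436), and Cbx3, which encodes a heterochromatin protein (0.483). These 4 genes also had their lowest ratio on replicate 6, at -4.06, -3.47, -3.47 and -3.32. Irs1 differed by 1.82 from Pik3r3 and by 1.73 from Pik3cb. Of the 8140 genes it was the 1800th nearest to Pik3r3 and the 1691st nearest to Pik3cb. Counted from Irs1, Pik3r3 and Pik3cb were the 8081st and 8055th nearest. The nearest genes of Irs1 were Lgi2 (0.153), Armt1 (0.155), the TFIID subunit gene Taf12 (0.187), the vesicle tethering gene Trappc10 (0.199) and the cullin gene Cul2 (0.203). Likeness over 6 arrays that share their pools and scale is given as a description.

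**Figure D2:**
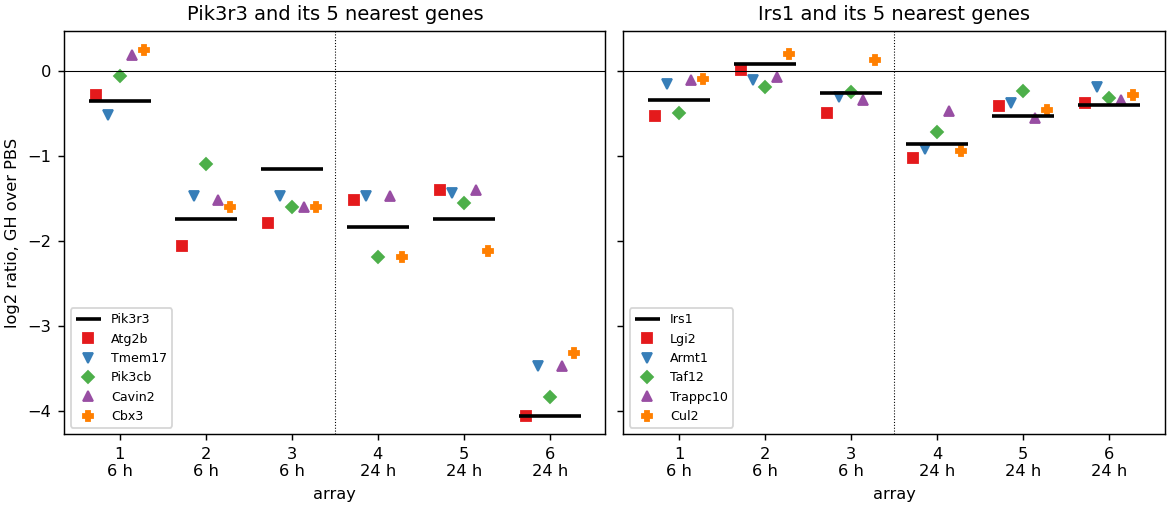
Log2 ratios of GH over PBS (vertical axis) on the 6 arrays (horizontal axis) for Pik3r3 and for Irs1 (black bars, Irs1 as the mean of its rows), each with the 5 named genes of smallest root mean square difference (symbols). The genes nearest to Pik3r3 lie at -4.06 to -3.32 on replicate 6 and between -0.51 and 0.25 on replicate 1.

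Between the times, the mean of Pik3r3 was 1.46 lower and that of Pik3cb 1.61 lower at 24 than at 6 hours on the log2 scale, and the mean of Irs1 0.42 lower. All of these differences were negative under every scaling and with each array left out in turn. For Pik3r3 and Pik3cb the size depended on replicate 6. Without it the difference was -0.70 for Pik3r3 and -0.95 for Pik3cb, and the 24-hour means were -1.79 and -1.87. The Irs1 difference was -0.52 without replicate 6, and it was smallest without replicate 4 (-0.29) or replicate 2 (-0.30). The labels give replicates 4 and 6 another output file prefix than the other 4 arrays. Replicate 5, the 24-hour array with the prefix of the 6-hour arrays, gave differences of -0.65 for Pik3r3, -0.64 for Pik3cb and -0.36 for Irs1, while replicates 4 and 6 gave -1.87, -2.09 and -0.46. The part of the prefix in these values was not tested.

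Equal scale changed the picture for some arrays. With every array scaled to the same median absolute deviation, the Pik3r3 ratios were -0.54, -1.89 and -1.06 at 6 hours and -1.54, -2.12 and -3.07 at 24 hours, which still overlapped. Those of Pik3cb were -0.09, -1.18 and -1.47 against -1.84, -1.90 and -2.90, which did not. Under that scaling 4.09% of all features were lower on every 24-hour array than on every 6-hour array. The mean differences between the times were then -1.08 for Pik3r3, -1.30 for Pik3cb and -0.34 for Irs1. After quantile normalization they were -1.08, -1.27 and -0.34, and then Pik3r3 did not overlap between the times while Pik3cb did. The share of all features lower on every 24-hour array was 3.95% there. Across all features, limma called 0 of 16678 (0.00% in either direction, 0.00% higher and 0.00% lower) for the difference between 24 and 6 hours after Benjamini-Hochberg adjustment, with 506 at an unadjusted p under 0.05. No call of a time difference can therefore be set beside these values.

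**Figure D3:**
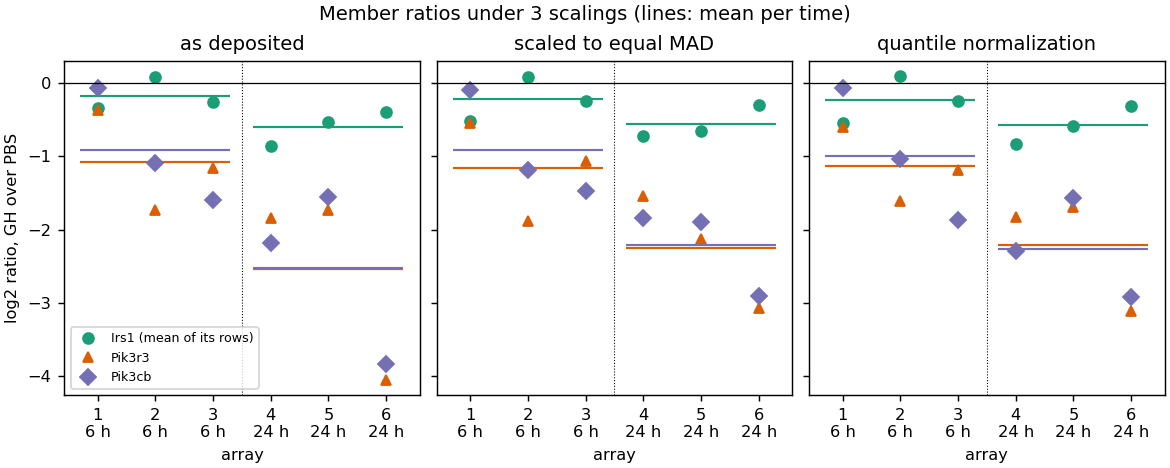
Log2 ratios of GH over PBS (vertical axis) of Irs1 (mean of its rows), Pik3r3 and Pik3cb on each array (horizontal axis) as deposited, with arrays scaled to an equal median absolute deviation, and after quantile normalization; lines are means of 3 arrays per time. The lowest Pik3r3 value moves from -4.06 to -3.07 and -3.11, and the 24-hour means stay below the 6-hour means in each panel.

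Among the other IRS and class I PI3K genes, no array had a ratio as low as the lowest of Pik3r3 or Pik3cb, while 2 Pik3r1 rows were nearly as low at 24 hours as row 1 of Irs1. The difference between these genes and the 3 was not tested. Here limma fitted 1 mean per time to every feature, and adjusted p-values are Benjamini-Hochberg values over all 16678 features. For scale, the share of features past an adjusted p of 0.05 was 20.6% at 24 hours (12.0% higher, 8.62% lower), 3.62% at 6 hours (2.91% higher, 0.702% lower) and 35.5% over both times (19.3% higher, 16.2% lower). Of the 7 other genes measured in these families, 0 passed at 6 or at 24 hours in limma, and 1, Irs4, passed over both times. Irs2, the gamma catalytic subunit gene Pik3cg and the regulatory subunit gene Pik3r6 had no row of a single gene symbol here.

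Irs4, an adaptor like IRS1, had values on 4 arrays, 0.18 and 0.96 at 6 hours and 1.03 and 0.88 at 24 hours. All were above 0, opposite in sign to most Irs1 values. Irs4 averaged 0.95 ± 0.24 (SE from limma) at 24 hours (adjusted p = 0.0560), and over both times it rose by 0.76 ± 0.17 (adjusted p = 0.0303). That call was lost with the output file prefix as a covariate (adjusted p = 0.0634). Irs3, the adaptor gene known mainly from rodents, ranged from -0.22 to 0.45 and averaged 0.08 ± 0.19 at 24 hours (adjusted p = 0.783).

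Among the catalytic subunits, Pik3ca (alpha) had 2 rows that disagreed. Row 1 of Pik3ca was below 0 on all 6 arrays, from -0.69 to -0.18, and row 2 of Pik3ca was above 0 on 5 of 6, from -0.01 to 0.58. Fitted alone, row 1 averaged -0.51 ± 0.14 at 24 hours (adjusted p = 0.0489 in limma) and row 2 averaged 0.41 ± 0.14 (adjusted p = 0.0776). Over both times both rows passed in opposite directions, at -0.48 (adjusted p = 0.0153) and 0.35 (adjusted p = 0.0370). Of all rows fitted alone 21.3% passed at 24 hours and 35.5% over both times. The mean of both rows was -0.05 ± 0.13 at 24 hours (adjusted p = 0.807). Pik3cd, the delta subunit of blood cells, lay between -0.12 and 0.23 on the 6 arrays (0.06 ± 0.12 at 24 hours, adjusted p = 0.747).

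The regulatory subunit gene Pik3r1, the most widely used partner of the catalytic subunits, had 3 rows. Rows 2 and 3, like the Pik3r3 row, were highest on replicate 1 and lowest on replicate 6. Row 2 of Pik3r1 went from 0.07 on replicate 1 down to -1.32 on replicate 6, and row 3 from 0.51 on replicate 1 down to -1.56 on replicate 6. Row 1 of Pik3r1 was above 0 on the 4 arrays where it had a value, from 0.39 to 1.17. Alone, row 2 fell at 24 hours (-0.90 ± 0.24, adjusted p = 0.0427 in limma), row 3 had -0.92 ± 0.33 (adjusted p = 0.0872) and row 1 had 0.59 ± 0.24 (adjusted p = 0.144). Over both times row 1 rose (0.71, adjusted p = 0.0372) and row 2 fell (-0.71, adjusted p = 0.0217). The mean over all rows was -0.53 ± 0.18 at 24 hours (adjusted p = 0.0719). Pik3r2, the beta regulatory subunit gene, averaged 0.23 ± 0.15 (adjusted p = 0.287), and Pik3r5, a partner of the gamma catalytic subunit, -0.02 ± 0.13 (adjusted p = 0.909).

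**Figure D4:**
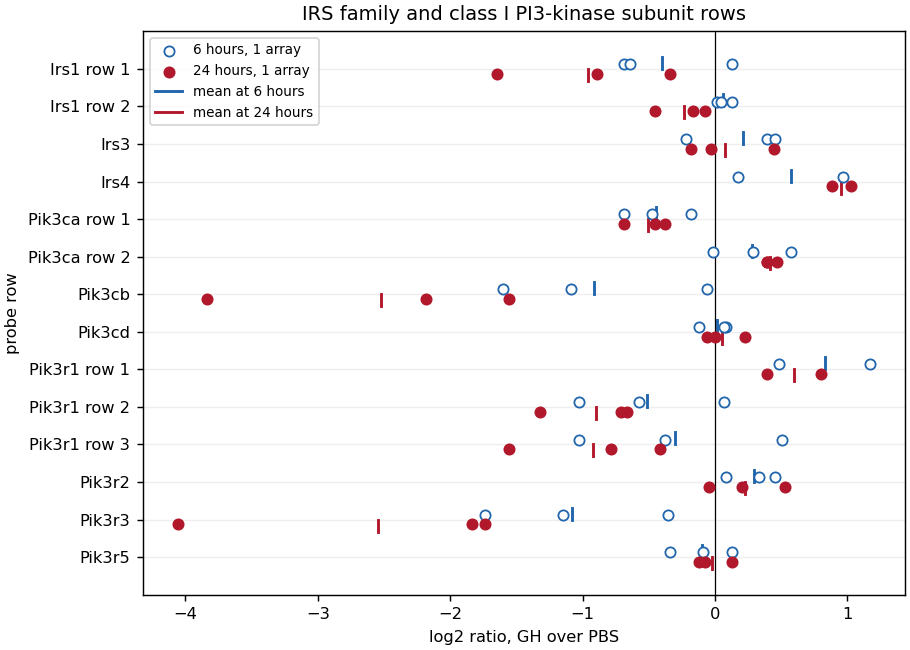
Each line of the vertical axis is a probe row of the IRS family or of a class I PI3K subunit, and the horizontal axis is the log2 ratio of GH over PBS. Open points are the 6-hour arrays, filled points the 24-hour arrays, and ticks the means per time. Pik3r3 and Pik3cb reach -4.06 and -3.84, while the rows of the other 7 genes stay between -1.56 and 1.17.

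Around these families, 119 further genes of the pathway had been listed by role, the other family members included, and 71 were tested. At 24 hours 9 of the 71 fell and 0 rose, 12.7% in all, beside 20.6% of all features (8.62% lower, 12.0% higher). The median log2 ratio of the 71 was -0.05, and that of all features was 0.00. Over both times 8 rose and 12 fell (28.2%, beside 35.5%), and at 6 hours 1 rose and 0 fell. Without replicate 3 or 4 the 24-hour count was 2, beside 1804 of 15491 and 831 of 15937 features. Without replicate 6 none of those still fitted passed at 24 hours in limma (15 at an unadjusted p under 0.05), and 0 of 16055 features did. Kit, Dok3 and Irs4 kept only 1 value at 24 hours without replicate 4 or 6 and were not fitted there. Mapkap1 was not fitted without replicate 3. With the output file prefix as a covariate, the 24-hour mean of a feature measured on replicate 5 rests on that array alone. Whether the 24-hour calls hold with the prefix accounted for can therefore not be judged.

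Upstream of the IRS adaptors and PI3K, 5 receptor genes were tested, and 1 fell at 24 hours (20.0%, beside 8.62% of all features). Kit, the stem cell factor receptor of mast and progenitor cells, fell 4.39-fold at 24 hours (-2.13 ± 0.39, SE, adjusted p = 0.0231 in limma), with values of -2.32 and -1.94 on its 2 measured 24-hour arrays. The receptor genes of insulin, Insr (0.45 ± 0.26, adjusted p = 0.246), and of IGF-1, Igf1r (0.33 ± 0.22, adjusted p = 0.289), did not pass, nor did Ghr (-0.24, adjusted p = 0.260). Pdgfrb, a platelet-derived growth factor receptor gene, had 0.43 at 24 hours (adjusted p = 0.0809) and rose over both times (0.42, adjusted p = 0.0267), a call lost without replicate 2, 3 or 4 and with the prefix as a covariate. Of 15 other receptor adaptors 3 fell and 12 did not pass, a share of 20.0% called beside 20.6% of all features (8.62% lower). The adaptor gene Dok3 had -1.55 ± 0.34 (adjusted p = 0.0336 in limma), the ubiquitin ligase gene Cblb, which restrains receptor signalling, -1.11 ± 0.24 (adjusted p = 0.0262), and Sh2b3, an inhibitor of cytokine receptor signalling, -1.01 ± 0.24 (adjusted p = 0.0329). Like Kit, Dok3 was measured on 2 of the 24-hour arrays, replicates 4 and 6 (-1.74 and -1.36).

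Of 6 phosphatases that oppose PI3K signalling 1 fell (16.7%, beside 8.62% of all features), Phlpp1, which removes an activating phosphate from AKT (-1.55 ± 0.29, 2.94-fold lower, adjusted p = 0.0202 in limma). The lipid phosphatase gene Inppl1 had 0.44 (adjusted p = 0.0923). The downstream list held 15 tested genes, namely kinases, mTOR complex genes and others such as Eif4e. Of these 4 fell at 24 hours and 0 rose, beside 8.62% of all features lower and 12.0% higher. Other mTOR complex genes did not pass then, among them Deptor, an mTOR inhibitor (0.17, adjusted p = 0.391), and Rptor (0.34, adjusted p = 0.0655). The Deptor value is the mean of 2 rows that disagreed, at 0.84 and -0.50. Mapkap1, a subunit of mTOR complex II, had -1.40, -2.18 and -3.06 on the 24-hour arrays (mean -2.21 ± 0.40, adjusted p = 0.0227). Mtor, the kinase itself, had -0.10, -0.62 and 0.82 at 6 hours and -0.81, -1.15 and -2.25 at 24 hours (mean -1.40 ± 0.35 at 24 hours, adjusted p = 0.0377). Both were lowest on replicate 6, as were Pik3r3 and Pik3cb. Rictor, the scaffold of mTOR complex II, had -0.81 ± 0.18 (adjusted p = 0.0298) as the mean of 2 rows at -0.30 and -1.31. Eif4e, which encodes the cap-binding protein of translation, had -0.99 ± 0.25 (adjusted p = 0.0385).

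Rptor, the scaffold of mTOR complex I, was the gene that rose at 6 hours (0.55, adjusted p = 0.0498 in limma), a call lost under 10 of 15 alternatives. It was above 0 on all 6 arrays, from 0.29 to 0.67. Pdpk1, the PDK1 gene, was also above 0 on all 6, from 0.28 to 0.56, and rose over both times (0.39, adjusted p = 0.0150), a call lost without replicate 2 or 3 and with the output file prefix as a covariate. None of the 10 regulators of IRS1 protein and none of the 11 FOXO factors and known FOXO targets passed at 24 hours in limma. Of all features 20.6% passed then (12.0% higher, 8.62% lower). Foxo1 had 0.10 (adjusted p = 0.578), Foxo3 0.38 (adjusted p = 0.0708) and Socs3, an inhibitor that can drive IRS1 to degradation, 0.22 (adjusted p = 0.263). Of the 2 tested genes of class II and III PI3K, Pik3c3 had -1.55 ± 0.55 at 24 hours (adjusted p = 0.0858) and fell over both times (-1.58, adjusted p = 0.0238), a call lost without replicate 3, 4 or 6 and with the output file prefix as a covariate.

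**Figure D5:**
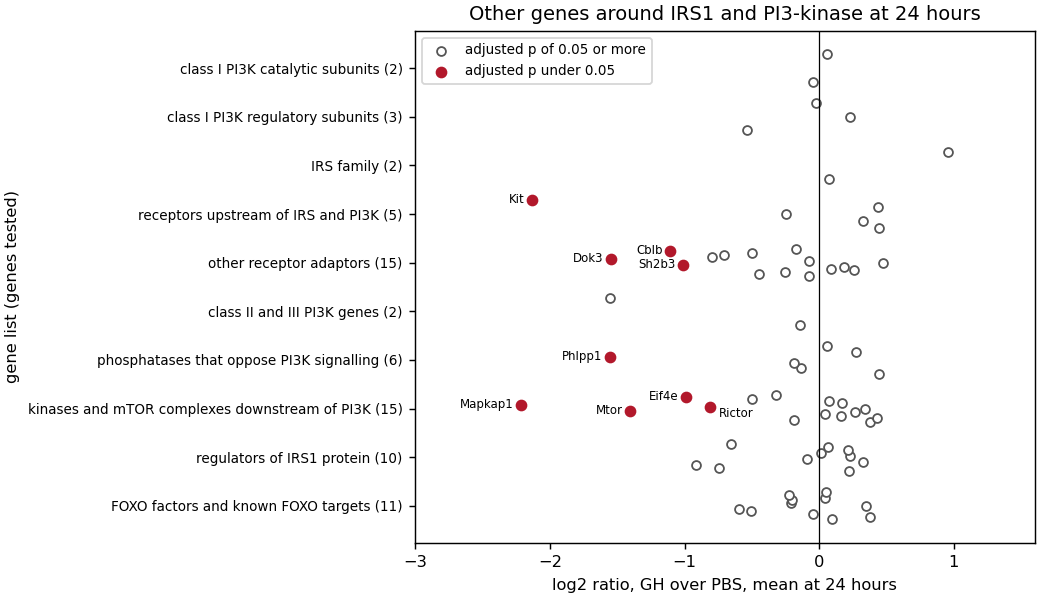
Mean log2 ratio of GH over PBS at 24 hours (horizontal axis) of 71 other pathway genes, by list (vertical axis, with the number tested; a gene may stand in 1 list only). Filled points passed an adjusted p of 0.05 in limma; all 9 lie below 0, from -2.21 (Mapkap1) to -0.81 (Rictor).

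Markers of the cell types in bone moved on some of the same arrays. Of 13 neutrophil lineage markers 7 were tested, 4 fell at 24 hours and 0 rose (8.62% of all features fell and 12.0% rose), and their mean log2 ratio was 0.06, -0.66 and -1.08 at 6 hours and -1.69, -0.65 and -0.87 at 24 hours. That list was near 0 on replicate 1, as Pik3cb was. The list was lowest on replicate 4, as were row 1 of Irs1 (-1.64) and the mean of the Irs1 rows (-0.86). Row 2 of Irs1, Pik3r3 and Pik3cb were lowest on replicate 6. Of 15 skeletal muscle markers 8 were tested, and their mean was above 0 on all 6 arrays (0.10 to 1.21). None of the 8 passed in limma at 24 hours, and 3 rose over both times (37.5%, beside 19.3% of all features). The 4 tested osteoblast and osteocyte markers, of 14 listed, averaged -0.01 at 6 hours and -0.22 at 24 hours, with 0 past the threshold. Of 4 osteoclast markers tested 1 rose and 1 fell at 24 hours, with means from -0.44 to 1.17. Of 5 erythroid and of 5 B lineage markers 1 each rose, and the lists averaged 0.19 and 0.12. The remaining lists held 1 chondrocyte and 1 adipocyte marker, at -0.56 and -0.19 at 24 hours. The part of these cell types in the ratios of the 3 genes was not tested.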

How the data were processed

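Per the labels' protocols, total bone RNA was amplified linearly from a primer with oligo(dT) and a T7 promoter and labelled as cRNA, GH in Cy5 and PBS in Cy3. The values deposited by the authors are log2 ratios, 1 for each row of each array. All of them (100%) come from linear ratios rounded to 2 decimals. Each array's median was near 0 (-0.0145 to 0.0286). Normalization and extraction software: not given in the sources used here. Replicate and treatment came from the titles, time from the treatment protocols.

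Rows were named through the platform annotation (11813 rows with 1 symbol, 559 with several, 9074 with none). Of those with 1 symbol, 11782 had an identifier in the GRCm38.p6 gene table, which changed 0 symbols. Rows of 1 symbol were averaged per gene, the others kept single. Features with values on at least 2 arrays of each time entered (16678, 8803 of them named). Tests used limma 3.58.1 in R 4.3.3, lmFit and eBayes, 1 mean per time, two-sided, with a threshold of 0.05 on Benjamini-Hochberg adjusted p. ± is SD for the 3 genes and SE from limma elsewhere. The script was tested on simulated ratios. The pools held separate animals by the design text.

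The members and all lists were chosen with earlier results of these data known. Named were the 3 genes, every measured IRS and class I PI3K gene, up to 4 passing genes per list and time, and the 5 nearest genes of each member; other genes with values were chosen after their values were seen. A planned search of protein sequences was not run. Alternatives were centring, scaling, quantile normalization, each row alone, complete features, exact zeros as missing, array weights, robust empirical Bayes, each time alone, the output file prefix as a covariate, and each replicate left out.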

Additional observations from a re-analysis of the deposited data

Results flagged for a closer look

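Row 2 of Irs1 was above 0 on every 6-hour array and below 0 on every 24-hour array, a difference of -0.29 on the log2 scale between the times. No test of this difference is given, because the gene was chosen with these ratios known. Its 6-hour values, 0.01 to 0.12, were close to 0, and row 1 of Irs1 did not show the same change of side. Of 15131 features with 6 values, 560 (3.70%) were lower on every 24-hour array than on every 6-hour array. Another 741 were higher on every 24-hour array.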

How the results depend on the processing

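The mean log2 ratios of Irs1, Pik3r3 and Pik3cb at either time, and their differences between the times, kept their sign under every alternative run on them. With 3 arrays a time, leaving out 1 cannot move a mean far against the SD, so this says little on stability, and the difference for Pik3r3 went from -1.46 to -0.70 without replicate 6. The counts moved more, and the cause was not tested. At 6 hours 603 features and 1 pathway gene passed as deposited. Scaling to equal median absolute deviation gave 1799 and 5, quantile normalization 1964 and 5, array weights 6241 and 22, and each time fitted alone 0 and 0 (by unadjusted p under 0.05 in limma, 4287 features). The pathway count was 0 with median centring, each row alone, robust empirical Bayes or the output file prefix as a covariate (16, 23, 15 and 16 genes at an unadjusted p under 0.05). Leaving out 1 replicate gave 0 (replicate 2, 3 or 4, with 1923, 2018 and 3883 at an unadjusted p under 0.05) to 1501 features (replicate 1), and 0 (each but replicate 1) to 4 pathway genes. At 24 hours 3444 features and 9 pathway genes passed as deposited. Each time alone gave 2277 features, equal scale 5 genes and each row alone 15 genes. With the prefix as a covariate the 24-hour mean rests on replicate 5 alone where that array has a value, so no count is given. Leaving out 1 replicate gave 0 (replicate 6, with 4124 at an unadjusted p under 0.05) to 4201 features (replicate 1) and 0 to 13 genes. None of the 9 calls held under all alternatives, their signs all did, and their adjusted p ranged from 0.0105 to 0.619. Over both times 5914 features and 20 genes passed as deposited, 1393 and 3 with the prefix, 32 genes with array weights, and 2192 (replicate 3) to 6756 features (replicate 1) and 7 to 21 genes with 1 replicate left out. The difference between the times with the prefix as a covariate rests on replicate 5 at 24 hours in the same way. Without channel intensities, the signal over background that limits low ratios such as 0.06 is unknown.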

Other observations

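Rows of other pathway genes disagreed as those of Irs1, Pik3ca and Pik3r1 did. These examples were chosen after their values were seen. Akt1, the kinase that PIP3 recruits, had 1 row that fell at 24 hours (-0.93 ± 0.25, SE, adjusted p = 0.0431 in limma with each row fitted alone) and another that rose (0.56 ± 0.12, adjusted p = 0.0242). On the 24-hour arrays the first had -1.12, -0.76 and -0.92 and the second 0.41, 0.56 and 0.71. Row 2 of Ikbkb, a kinase gene of the NF-kappa-B pathway that can also phosphorylate IRS1, rose (0.84 ± 0.20, adjusted p = 0.0331), while rows 1 and 3 averaged -0.16 and -0.65. Row 1 of Igf1r had 2.93 on replicate 6 and between -0.20 and 0.25 on the other 5 arrays.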
